A study of Mus musculus with 20 samples.

Results

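A set of 7 genes of the B cell receptor and of B cells was followed in whole lung of smoke-exposed mice: Cd79a, Cd79b, Ms4a1, Cd22, Blk, Pou2af1 and Cr2. They were taken by gene symbol, as every array probe that the platform annotation assigns to them, which gave 13 of the 25697 probes. The mice were males of the inbred AKR/J strain, aged 6 to 8 weeks at the start, and their lungs were profiled on Illumina bead arrays, 1 array per sample, in 20 samples. The groups were 7 samples from mice exposed to cigarette smoke (CS), 3 from mice exposed to smoke with losartan in the drinking water (CS_Los), 3 from mice in room air with losartan (RA_Los) and 7 from mice in room air (RA). Smoke came from 2R4F reference cigarettes in daily sessions of 2 h, 5 days a week, with carbon monoxide averaging 350 ppm, and losartan, which blocks the angiotensin II type 1 receptor, was given at 0.6 g/L. The exposure lasted 6 to 7 weeks by the treatment protocol and 2 months by the series' design text. The labels place 3 samples of each group in batch 1 and 4 CS and 4 RA samples in batch 2, and samples are called by the labels' replicate numbers, 1 to 3 in batch 1 and 4 to 7 in batch 2. They do not state that each sample was a separate animal, so the p-values reflect only how far these samples scatter, which may be technical.

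The B cell receptor is a membrane immunoglobulin held together with a signalling pair, the proteins of Cd79a and Cd79b. Their cytoplasmic tails carry tyrosine motifs that Src-family kinases such as Blk phosphorylate, and the kinase Syk then binds there. Cd22 encodes a sialic acid-binding lectin that recruits the phosphatase encoded by Ptpn6 and dampens the receptor, while the complement receptor encoded by Cr2 lowers the signal that a B cell needs. Ms4a1 encodes CD20, a surface protein of mature B cells, and Pou2af1 a coactivator that binds the octamer factors Oct1 and Oct2 on B cell promoters. Resting lung holds few B cells, and long smoke exposure is known to be accompanied by lymphoid aggregates around airways and vessels.

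For the members that rose under smoke, the promoter windows of Cd79a, Cd22 and Pou2af1 are shown, since Pou2af1 acts through the octamer and EBF1 is a known activator of Cd79a. Cd79b rose too but had no window in the promoter set used. The windows run from 250 bases before to 50 bases after a transcript start (RefSeq, GRCm38.p6, written 5′ to 3′ on the gene's strand), and capitals mark matches to the motifs searched. They are chr7:24897247-24897546 on the plus strand for Cd79a, chr7:30878979-30879278 on the minus strand for Cd22 and chr9:51213440-51213739 on the plus strand for Pou2af1. The Cd22 window lies inside the annotated gene, which begins at base 30880342 on the minus strand.
Cd79a: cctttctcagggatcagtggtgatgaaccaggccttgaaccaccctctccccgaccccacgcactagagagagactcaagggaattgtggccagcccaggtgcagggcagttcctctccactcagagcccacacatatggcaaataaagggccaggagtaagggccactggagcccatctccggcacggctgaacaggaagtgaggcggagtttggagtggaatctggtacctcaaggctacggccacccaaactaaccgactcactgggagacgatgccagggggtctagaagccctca
Cd22: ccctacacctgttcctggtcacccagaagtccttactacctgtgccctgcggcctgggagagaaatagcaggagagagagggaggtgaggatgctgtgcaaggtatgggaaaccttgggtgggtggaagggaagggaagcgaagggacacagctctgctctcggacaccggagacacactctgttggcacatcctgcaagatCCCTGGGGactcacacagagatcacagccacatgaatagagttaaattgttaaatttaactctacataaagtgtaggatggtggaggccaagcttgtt
Pou2af1: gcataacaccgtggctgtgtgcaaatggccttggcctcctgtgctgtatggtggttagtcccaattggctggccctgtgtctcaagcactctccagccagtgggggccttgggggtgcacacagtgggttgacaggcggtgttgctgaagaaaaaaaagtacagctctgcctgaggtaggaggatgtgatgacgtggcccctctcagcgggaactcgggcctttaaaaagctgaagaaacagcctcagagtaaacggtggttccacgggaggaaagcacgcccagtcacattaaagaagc
The octamer, searched as ATGCAAAT on both strands, was in 0 of these windows and in 0 of the 4 member windows held by the table, the fourth being that of Cr2. It was in 570 of 32851 promoter windows of the same length (1.74%). The EBF1-type letters CCCNNGGG, searched on both strands, were in 4491 windows (13.7%) and, among the members, in that of Cd22 alone, at bases 203 to 210 of the window. A match is a description of the letters, and their absence says only that they are not in this window. Only exact letters were searched. For instance, the Cd79a window holds ctcaaggg, which has a t where the EBF1-type letters have a C, and it was not marked.

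Signals depended on the batch. Median raw intensities of 57.2 to 72.3 in batch 1 (12 arrays) stood beside 87.4 to 100.4 in batch 2 (8 arrays), and batch was a term of the smoke comparison. All 10 lung markers examined, among them the surfactant gene Sftpc and the club cell gene Scgb1a1, were detected on all 20 arrays. Between CS and RA 0 of them passed an adjusted p of 0.05. Col1a1 came nearest, with a log2 change of 0.43 ± 0.141 (SE; limma adjusted p = 0.0572). The B cell genes were dim. Raw intensities of Cd79a ran from 94.1 to 361.6 in CS and from 66.0 to 187.9 in RA, while the 3 member probes detected on 0 arrays read 34.5 to 63.0. A probe counted as detected at a detection p under 0.05. Levels below are background-corrected, quantile-normalized log2 signals, on which the undetected member probes lay between 4.22 and 4.61, so changes of the dimmest members are compressed. Levels of different genes cannot be set against each other on this scale.

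Smoke-exposed lungs had higher signals of both signalling chains of the receptor, of the inhibitory lectin and of the coactivator. Cd79a was 2.15-fold, Cd79b 1.98-fold, Pou2af1 1.82-fold and Cd22 1.42-fold higher in CS than in RA, all past an adjusted p of 0.05 in limma, so 4 of 7 members rose and 0 fell. Over all 12719 features tested, 6.09% rose and 6.73% fell, 12.8% in all, and 26.8% had an unadjusted p under 0.05, as the same 4 members did. Blk, Ms4a1 and Cr2 did not pass, with positive log2 differences of 0.46, 0.13 and 0.04. The median log2 change was 0.51 over the 7 members and -0.005 over all features. All 7 genes passed the detection filter with at least 1 probe, and the 4 that rose were detected on 17 or more of 20 arrays, RA arrays included. In whole tissue, more B cells and more of an RNA per B cell cannot be told apart.

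**Figure D1:**
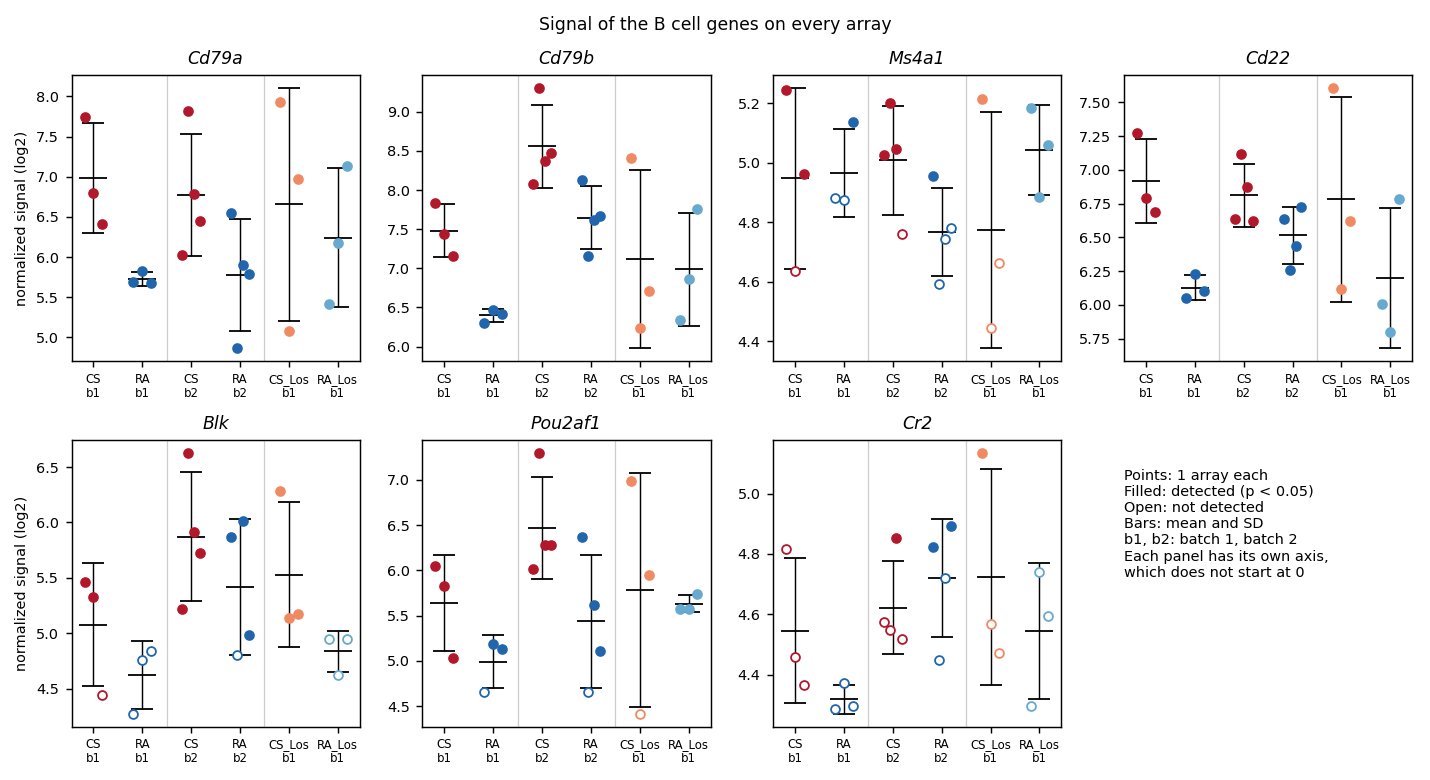
Normalized log2 signal of each B cell gene on every array, by group and batch (b1, b2), with filled points for detected and open points for undetected signals and bars for the mean and SD. In batch 1 the 3 CS arrays lie above the 3 RA arrays for Cd79a, Cd79b and Cd22, and CS_Los arrays spread from below the RA range to above the CS range for Cd79a.

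Cd79a, the alpha chain of the signalling pair, read 7.74, 6.80 and 6.42 on the CS arrays of batch 1, against 5.69, 5.83 and 5.67 on its RA arrays. In batch 2 it read 6.03, 7.81, 6.79 and 6.45 on CS arrays and 6.55, 4.87, 5.90 and 5.79 on RA arrays. The groups were apart in batch 1 and overlapped in batch 2, where RA 4 was above CS 4 and CS 7. Over both batches the log2 change was 1.11 ± 0.277 (SE, n = 7 per group; limma adjusted p = 0.0147).

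Cd79b, the beta chain, gave 7.83, 7.44 and 7.16 on the CS arrays of batch 1 and 6.30, 6.47 and 6.42 on its RA arrays. On the CS arrays of batch 2 it gave 8.08, 9.31, 8.37 and 8.47, and on the RA arrays 8.14, 7.16, 7.62 and 7.67. Again batch 1 showed no overlap, and in batch 2 RA 4 alone lay above 1 CS array, CS 4. The log2 change was 0.98 ± 0.175 (SE, n = 7 per group; limma adjusted p = 0.00158). A further Cd79b probe, fitted among all kept probes, changed by 0.90 ± 0.208 (limma adjusted p = 0.0101), and within groups the residuals of the 2 probes had a Pearson's r of 0.93 over 20 arrays.

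Cd22, the inhibitory lectin, stood at 7.27, 6.79 and 6.69 in CS and at 6.05, 6.23 and 6.11 in RA of batch 1. In batch 2 it stood at 6.64, 7.11, 6.87 and 6.62 in CS and at 6.64, 6.26, 6.43 and 6.73 in RA. The change was thus carried more by batch 1, with a log2 change of 0.79 ± 0.172 there and of 0.30 ± 0.137 in batch 2 (limma adjusted p = 0.0882 and adjusted p = 0.251). The difference between batches did not pass (0.50 ± 0.226; limma adjusted p = 0.998), and over both batches Cd22 rose by 0.51 ± 0.124 (SE, n = 7 per group; limma adjusted p = 0.013). Of its other probes, 1 was detected on 8 arrays, with a change of 0.23 ± 0.102 (limma adjusted p = 0.169), and 1 on 0 arrays.

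Pou2af1, the octamer coactivator, read 6.05, 5.83 and 5.04 on CS arrays and 4.66, 5.19 and 5.13 on RA arrays of batch 1. In batch 2 it read 6.01, 7.30, 6.28 and 6.28 in CS and 6.37, 4.66, 5.62 and 5.11 in RA. The groups overlapped in both batches, and the highest CS array, CS 5, was also the highest for Cd79a and Cd79b. Pou2af1 rose by 0.87 ± 0.252 (SE, n = 7 per group; limma adjusted p = 0.0325). Its call was the least steady of the 4: leaving out a single array ended it in 7 of 14 cases, namely RA 1, RA 5, RA 6, RA 7, CS 1, CS 2 and CS 5 (limma adjusted p reaching 0.0687).

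Blk, the Src-family kinase, spanned 4.45 to 6.63 in CS with a median of 5.47, and 4.28 to 6.01 in RA with a median of 4.84. Detection succeeded for 6 of 7 samples in CS and 3 of 7 in RA, and the log2 difference of 0.46 ± 0.233 did not pass (limma adjusted p = 0.225; 95% interval -0.04 to 0.95). In batch 1 2 of 3 samples in CS but 0 of 3 in RA had a detected signal, and the means of these arrays, 5.08 in CS and 4.62 in RA, were at least 1.02-fold apart. That difference did not pass either (limma adjusted p = 0.513; 95% interval -0.17 to 1.08). For this bound the RA level on each array was taken as that of its weakest detected probe or of Blk itself, whichever was brighter. Of the other Blk probes, 1 was detected on 7 arrays, and 1 on 0 arrays. The former, fitted among all kept probes, changed by 0.30 ± 0.159 between CS and RA (limma adjusted p = 0.264).

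The 2 surface receptors Ms4a1 and Cr2 were near the detection limit. Ms4a1 ran from 4.63 to 5.24 in CS and from 4.59 to 5.14 in RA, detected on 5 of 7 and 2 of 7 arrays, with a log2 difference of 0.13 ± 0.104 (limma adjusted p = 0.463; 95% interval -0.09 to 0.35). Cr2 ran from 4.37 to 4.85 in CS and from 4.29 to 4.89 in RA, detected on 1 of 7 and 2 of 7 arrays, with a difference of 0.04 ± 0.0987 (limma adjusted p = 0.838; 95% interval -0.17 to 0.25). Both intervals lie below the change fitted for Cd79b, though on dim probes a change in RNA is understated.

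Within single batches fewer members passed. Batch 1 alone, with 3 arrays a group, gave 1 call, Cd79b (log2 change 1.08 ± 0.179; limma adjusted p = 0.0442), where 0.33% of all features were called higher. Batch 2 alone, with 4 a group, gave 0 calls (limma), where 5.51% of all features were called, 2.42% higher and 3.09% lower. There 3 of 7 members had an unadjusted p under 0.05, beside 20.8% of all features. Cd79a was at 1.26 in batch 1 and 0.99 in batch 2, and Pou2af1 at 0.65 and 1.03. The test of smoke by batch called 0 members and 0.0157% of features (limma), with 1 of 7, Cd22, at an unadjusted p under 0.05 beside 4.65% of features. Every CS array lay above every RA array for 3 members in batch 1, beside 9.94% of features, for 0 in batch 2, beside 6.22%, and for 0 within both, beside 2.34%. A fit over all 20 arrays, which takes in the spread of the losartan groups, kept Cd79b alone (limma adjusted p = 0.0403).

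**Figure D2:**
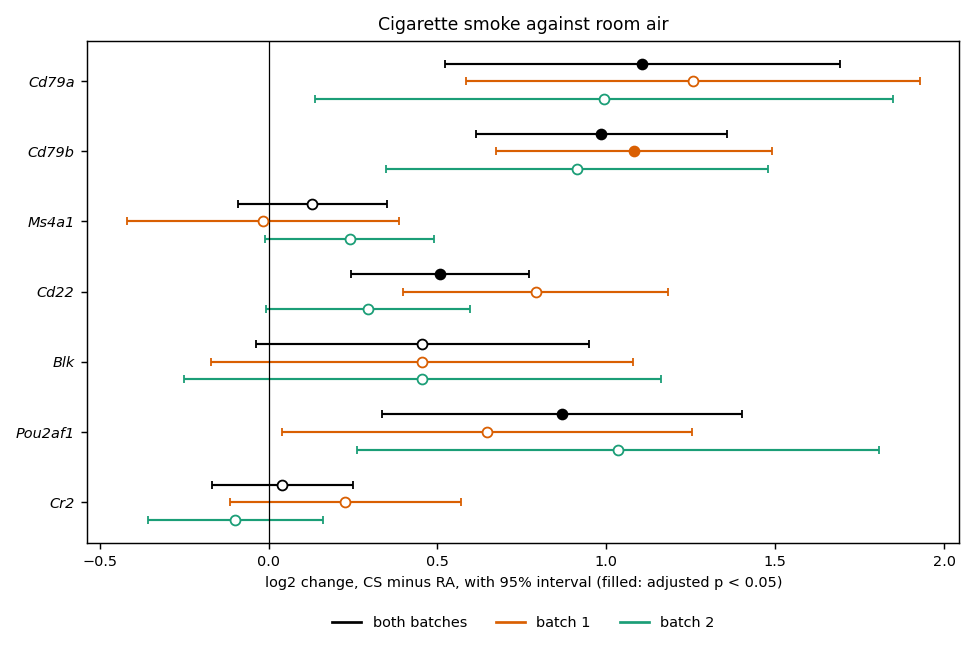
Log2 change of each B cell gene, CS minus RA, with its 95% interval, over both batches (black) and within batch 1 (orange) and batch 2 (green), filled where the adjusted p was under 0.05. The intervals of Cd79a, Cd79b and Pou2af1 lie above 0 in all 3 fits, while those of Blk, Ms4a1 and Cr2 include 0.

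The members went up and down together from array to array within the groups. After the mean of each group and batch was taken out, Cd79a and Cd79b had a Pearson's r of 0.92 over the 20 arrays, Cd79b and Cd22 0.91, and Cd79a and Pou2af1 0.89. The 21 pairs ranged down to 0.47, for Blk and Cr2. These are descriptions, and the points share arrays, normalization and the tissue piece sampled. Without CS_Los 1 and CS_Los 2, the arrays with the highest and lowest mean residual (0.89 and -0.77), the same pairs gave 0.90, 0.83 and 0.81, and the lowest of the 21 was 0.30, for Pou2af1 and Cr2. Ms4a1 was the member that lost most, with an r against Cd79b of 0.65 over 20 arrays and 0.39 without those 2 arrays.

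**Figure D3:**
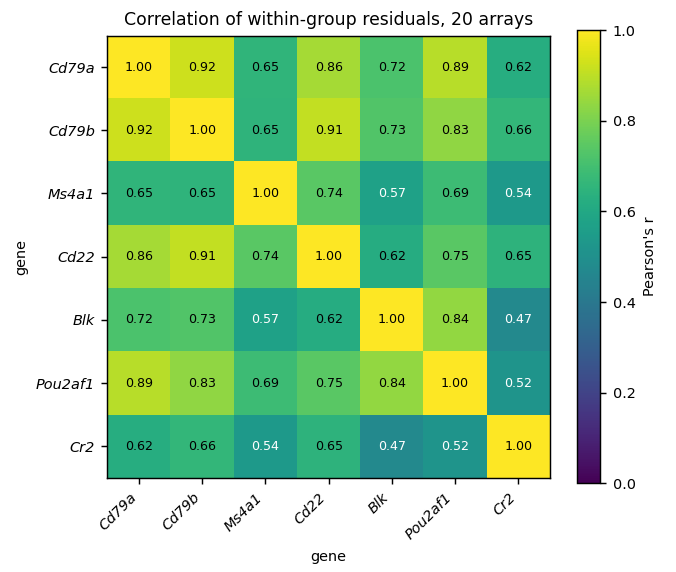
Pearson's r between the B cell genes over 20 arrays, after the mean of each group and batch was subtracted. Cd79a, Cd79b, Cd22 and Pou2af1 have values from 0.75 to 0.92 among themselves, and the column of Cr2 holds the lowest values, down to 0.47 with Blk.

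Among 11262 other features detected on at least 10 arrays, the 8 whose residuals were most like the members' mean were led by B cell genes. Fcrla, an Fc receptor-like protein of B cells, had an r of 0.93, the transcription factor gene Bcl11a 0.93, and Tnfrsf13c, the receptor of the B cell survival factor BAFF, 0.90. The others were an unnamed probe (0.93), Acap1 (0.90), Rasgrp1, a Ras activator of lymphocytes (0.90), Rasal3 (0.88) and the T cell surface gene Cd6 (0.88). Of these, Bcl11a rose under smoke by 1.06 ± 0.149 (limma adjusted p = 0.000245). The unnamed probe (1.60), Cd6 (0.77), Tnfrsf13c (0.73), Rasgrp1 (0.56) and Acap1 (0.56) rose too. Fcrla stood at 0.42 ± 0.187 (limma adjusted p = 0.158) and Rasal3 at 0.36 (limma adjusted p = 0.0661), and neither passed. The median r was 0.82 over 13 listed B cell identity genes and 0.68 over 12 T cell genes, beside -0.003 over all 11262 features.

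Beyond the members, 7 of 16 tested B cell identity genes rose and 0 fell between CS and RA, with a median log2 change of 0.48. Besides Bcl11a, these included Cxcr5, the receptor that guides B cells into follicles (0.82 ± 0.225; limma adjusted p = 0.0252), Tnfrsf13c (0.73) and Ebf1, a transcription factor that sets B cell fate (0.64). Pou2f2, which encodes Oct2, the partner of the Pou2af1 protein, rose by 0.52 ± 0.154 (limma adjusted p = 0.0352). The B cell factor gene Pax5 did not pass the detection filter. Vpreb3 (-0.01), Fcrl1 (-0.003) and the class II regulator gene Ciita (-0.21) did not pass.

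Genes that act downstream of the receptor gave 5 higher and 0 lower of 18, with a median of 0.16. These were Prkcb, the protein kinase C of the B cell NF-kappaB route (0.73 ± 0.151; limma adjusted p = 0.00451), the Ras activator gene Rasgrp3 (0.61), the phosphoinositide kinase subunit gene Pik3cd (0.50), the adaptor gene Blnk (0.33) and Dapp1 (0.29). The kinase genes Syk (-0.02) and Btk (0.30) did not pass. Of 9 inhibitors 2 rose and 0 fell: Ptpn6, which encodes the phosphatase that Cd22 recruits (0.32 ± 0.0807; limma adjusted p = 0.0151), and Lilrb4a (0.65), an inhibitory receptor gene of myeloid cells as well. The inhibitory Fc receptor gene Fcgr2b stood at -0.06.

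Of 10 tested genes that serve antibody secretion and plasma cells 1 rose and 1 fell, with a median of 0.01. The immunoglobulin chain genes of that list, such as Ighm and Igkc, were not analysed here. Pigr, the epithelial transporter of secreted antibody, rose by 1.34 ± 0.164 (limma adjusted p = 6.98e-05) and Creld2, a chaperone-like protein of the endoplasmic reticulum, fell by 0.82; neither is restricted to plasma cells. Jchain, the joining chain of secreted antibody, stood at -0.08, and the plasma cell genes Mzb1 (0.59; limma adjusted p = 0.0861) and Prdm1 (0.39) did not pass. Of 13 survival and lymphoid tissue factors 2 rose and 0 fell: Ltb, the lymphotoxin beta chain (0.78 ± 0.191; limma adjusted p = 0.0132), and the homing receptor gene Ccr7 (0.47). Cxcl13, the follicle chemokine that Cxcr5 recognises, stood at -0.27 ± 0.288 (limma adjusted p = 0.6), and Tnfsf13b, which encodes BAFF, at -0.18. Of 6 genes related to Ms4a1 or Cr2, Ms4a6b rose (0.53) and Ms4a8a fell by 0.67.

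Markers of other cells moved in the same comparison. T cell genes gave 4 higher and 0 lower of 13, with Cd8b1 (0.78) and Cd6 (0.77) the highest, and their summed normalized level was 1797 to 2258 in CS against 1308 to 1686 in RA of batch 1, and 1951 to 2530 against 1388 to 2325 in batch 2. Of 5 NK cell genes 2 rose and 0 fell, Klrd1 (0.55) and Ncr1 (0.43), with summed levels of 6931 to 12022 in CS against 6563 to 8479 in RA of batch 1, and 2685 to 4624 against 2809 to 3834 in batch 2. Neutrophil genes gave 8 higher and 0 lower of 10, led by Cd177 (2.46), with summed levels of 4962 to 9608 in CS against 2206 to 3895 in RA of batch 1, and 8242 to 17973 against 3590 to 5223 in batch 2. Of 6 macrophage genes 1 rose, Cx3cr1 (1.17), while the list had 2 positive values and a median of -0.05. Of 8 muscle genes 0 passed, with 7 positive values and a median of 0.40. Erythroid genes gave 3 lower of 4, among them Hbb-b2, which fell by 1.87, with summed levels of 1198 to 2716 in CS against 2844 to 28801 in RA of batch 1, and 4346 to 13180 against 2560 to 31334 in batch 2. Of 5 genes of plasmacytoid dendritic cells, Tcf4 rose (0.26). Ly6d (0.60), Irf8 (0.14), Siglech (0.03) and Bst2 (-0.04) did not pass. The summed level, in which bright genes weigh most, was 6568 to 6887 in CS against 5674 to 6486 in RA of batch 1. In batch 2 it was 4436 to 4747 against 3768 to 4193. Of the lists' defining genes, Cd4, Cd8a and Gzmb did not pass the detection filter. The part of these cells in the members' rise was not tested.

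Erythroid and muscle levels also varied between arrays. Against the RA mean of the batch, the 4 erythroid genes averaged from -2.50 on CS 2 to 1.29 on RA 2, where the members averaged 0.59 and 0.08. The 8 muscle genes averaged from -2.04 on RA_Los 3 to 2.66 on RA_Los 1, where the members averaged 0.70 and 0.09. With the members' mean residual over 20 arrays, the median r was -0.44 for 3 erythroid genes and 0.05 for 8 muscle genes, and their part in the members' values was not tested.

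**Figure D4:**
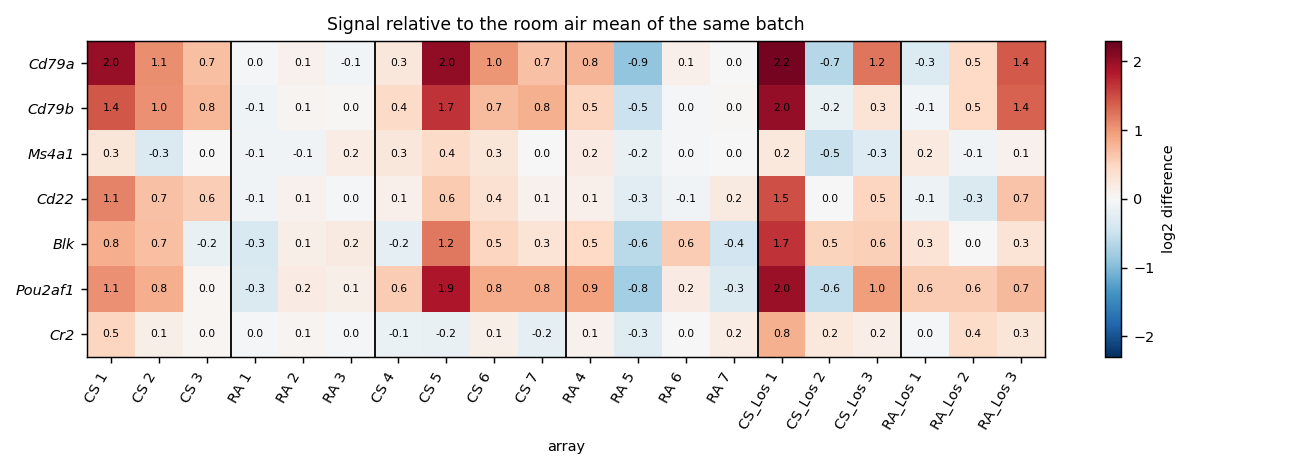
Log2 difference of each B cell gene on each array from the RA mean of its batch. Of the CS arrays, CS 1 and CS 5 have the highest values of Cd79a, 2.01 and 2.04, and within CS_Los the first array stands at 2.20 and the second at -0.65.

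Losartan was given in batch 1 alone, with 3 arrays a group, and the question was whether it moved these genes with or without smoke. The CS_Los arrays spread more widely than any other group of that batch. Cd79a read 7.93, 5.08 and 6.97 on CS_Los arrays, against 7.74, 6.80 and 6.42 on CS arrays, so CS_Los 1 exceeded every CS array and CS_Los 2 lay below every one. Cd79b read 8.41, 6.24 and 6.71 in CS_Los against 7.83, 7.44 and 7.16 in CS. Pou2af1 showed the same order, at 6.99, 4.42 and 5.95 in CS_Los against 6.05, 5.83 and 5.04 in CS. Cd22 gave 7.61, 6.12 and 6.62 in CS_Los and 7.27, 6.79 and 6.69 in CS.

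In CS_Los against CS the changes were -0.33 ± 0.597 for Cd79a and -0.36 ± 0.462 for Cd79b (SE, n = 3 per group; limma adjusted p = 0.962 and adjusted p = 0.951). The further Cd79b probe, fitted among all kept probes, was at -0.05 ± 0.513 (limma adjusted p = 0.994). Limma called 0 of 7 members and 0% of the 12719 features, and at an unadjusted p under 0.05 it had 0 members and 5.94% of features. The 95% interval ran from -1.62 to 0.96 for Cd79a and from -0.86 to 0.59 for Cd22, so both a loss of the smoke rise and a further rise lie inside them. The sign for Cd79a rested on single arrays: it was -0.96 without CS_Los 1 and 0.46 without CS_Los 2. Pou2af1, at 0.15 over all, was at -0.46 and 0.83 in the same fits, and Cd79b was at 0.08 without CS_Los 2.

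In room air, losartan lungs gave Cd79a levels of 5.41, 6.18 and 7.14 on RA_Los arrays, against 5.69, 5.83 and 5.67 on RA arrays. RA_Los 3 was the highest of them for Cd79a, Cd79b and Cd22. Pou2af1 read 5.57, 5.58 and 5.74 in RA_Los against 4.66, 5.19 and 5.13 in RA, so the groups did not overlap. Every RA_Los array lay above every RA array for 1 of 7 members, Pou2af1, beside 4.82% of features, and its log2 difference of 0.64 ± 0.473 did not pass (limma adjusted p = 0.964; 95% interval -0.39 to 1.66). Limma called 0 of 7 members in RA_Los against RA, beside 0.00786% of features, and had 0 of 7 members and 4.76% of features at an unadjusted p under 0.05. Without RA_Los 3 the difference of Cd79a was 0.07, against 0.51 with it.

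With losartan, smoke against room air (CS_Los against RA_Los) called 0 members and 0% of features in limma, and at an unadjusted p under 0.05 1 of 7 members, Blk, and 5.35% of features. Blk was detected on 3 of 3 CS_Los and 0 of 3 RA_Los arrays and did not pass, with means of 5.53 in CS_Los and 4.84 in RA_Los that were at least 1.51-fold apart (limma adjusted p = 0.924; 95% interval 0.0016 to 1.38). Without CS_Los 1 its log2 difference was 0.32, against 0.69 with it. Cd79a was at 0.42 ± 0.597 and Cd79b at 0.13 ± 0.462 in that comparison (SE, n = 3 per group; limma adjusted p = 0.995 for each). The further Cd79b probe, fitted among all kept probes, was at 0.72 ± 0.513 there (limma adjusted p = 0.958). The losartan comparisons share arrays with each other and with the smoke comparison. The test of the interaction, the effect of losartan in smoke minus that in room air, gave -0.84 ± 0.844 for Cd79a and -0.95 ± 0.654 for Cd79b (limma adjusted p = 0.884 and adjusted p = 0.826). The further Cd79b probe stood at -0.06 ± 0.726 in this test (limma adjusted p = 0.994), so the Cd79b estimate depended on the probe. In RA_Los against RA that probe was at 0.005 ± 0.513, where the first was at 0.59 ± 0.462. The interaction test called 0 members and 0% of features (limma), with 0 of 7 members and 7.17% of features at an unadjusted p under 0.05. Over the gene lists, limma called 0 B cell identity, receptor signalling or inhibitor genes in the losartan comparisons or the interaction. In CS_Los against CS, Spib led the identity genes (0.41 ± 0.231; limma adjusted p = 0.88), Blnk the signalling genes (0.34 ± 0.177; limma adjusted p = 0.866) and Ccr7 the survival and lymphoid tissue factors (-0.77 ± 0.232; limma adjusted p = 0.58), none of them called.

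**Figure D5:**
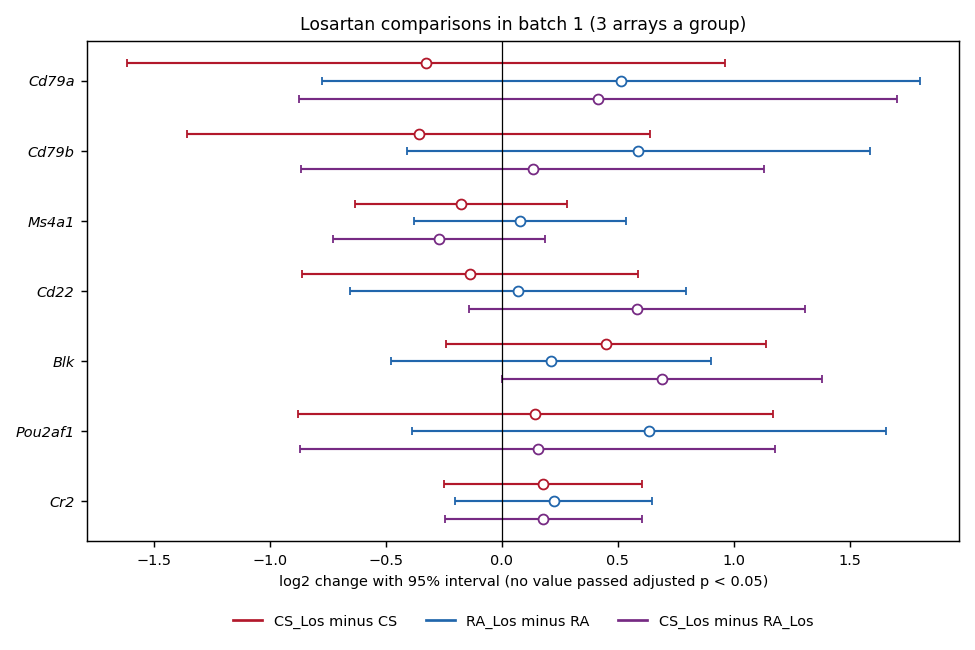
Log2 change of each B cell gene with its 95% interval in the 3 comparisons of batch 1 that involve losartan, CS_Los minus CS (red), RA_Los minus RA (blue) and CS_Los minus RA_Los (purple), with 3 arrays per group. All but 1 of the 21 intervals include 0, the exception being Blk in CS_Los minus RA_Los, and 0 values passed the adjusted threshold.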

How the data were processed

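Total RNA of whole lung was amplified, labelled with biotin and hybridised to bead arrays. The deposited probe signals are linear intensities without normalization, per the file headers, and were made with BeadStudio, version not given in the sources used here, per the submitters' processing notes. The deposited detection p-values stand in numbered columns without sample names, per the file headers, and each was taken to belong to the signal column before it. All 20 had their most negative rank correlation with that column. A second deposited table holds log2 values, which equal the log2 intensity shifted by a constant per array (largest difference 0.0065).

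Background was corrected with limma's nec (offset 16), followed by quantile normalization and log2 (R 4.3.3, limma 3.58.1). The detection filter (p under 0.05, 3 arrays or more) kept 17012 of 25697 probes, and the brightest kept probe stood for each gene (11196 named and 1523 unnamed features). Of the member probes 10 of 13 were kept. Smoke was fitted over 14 arrays with batch as a term and losartan over the 12 arrays of batch 1. The fits used lmFit and eBayes, with Benjamini-Hochberg adjustment over 12719 features. Those of CS against RA and CS_Los against CS were also run on simulated data with independent noise per feature. The outcome is not given here. The number of arrays limits the precision. No 2 arrays were identical (highest Spearman correlation 0.99).

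Named genes were all members, up to 4 called genes of each list, the leading gene of some but not all lists without calls, and the 8 features most like the members. Others named with values that did not pass (such as Syk, Cxcl13 and Jchain) were chosen for their role after the values were seen, as were Pou2f2 and Dapp1, called genes outside the first 4 of their lists. The members and lists were chosen with earlier results of these data known.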

Additional observations from a re-analysis of the deposited data

How the results depend on the processing

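Under the alternatives for background correction, normalization, the authors' log2 values, all kept probes, arrayWeights and the stricter filter, 4 members rose between CS and RA, as reported. The stricter filter left 5 of 7 members, without Ms4a1 and Cr2. Without a detection filter, or with trend and robust eBayes, Pou2af1 did not pass and 3 did. The count was 1 within batch 1 alone, 0 within batch 2 alone, 1 (Cd79a) with no batch term, 1 (Cd79b) over all 20 arrays, and 3 to 4 with 1 array left out. The replicate number as a block left 2 members, Cd79b and Cd22, and ended the calls of Cd79a (limma adjusted p = 0.0526) and Pou2af1 (limma adjusted p = 0.0855). The labels do not say what a number shares, and deviations of same-numbered samples correlated at -0.34 to 0.0096 for CS and RA, -0.29 to -0.0998 for CS_Los and CS, -0.31 to -0.075 for CS_Los and RA_Los, and 0.049 to 0.31 for RA_Los and RA, where 2 of 3 correlated best with their own number. Features called between CS and RA numbered 1631, against 83 in batch 1 alone, 701 in batch 2 alone, 439 with no batch term, 745 over all 20 arrays and 1194 to 1918 with 1 array left out. The first 2 of these fits had fewer samples, and the cause of the differences was not tested. Over all 20 arrays CS_Los against CS and CS_Los against RA_Los each had 1 feature called in place of 0. In RA_Los against RA the 1 feature called went to 0 under no background correction, 75th percentile centring, the authors' log2 values, offset 50, either other filter and all 20 arrays, and to 0 to 1 with 1 array left out. Smoke by batch had 2 features called, against 0 with no background correction, 75th percentile centring, the authors' log2 values or the stricter filter, 1 with offset 50, all kept probes, trend and robust eBayes or the replicate block, and 1 to 3 with 1 array left out.

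Without background correction, with offset 50 and with the authors' log2 values the log2 change was smaller: Cd79a was at 0.77, 0.78 and 0.76 and Pou2af1 at 0.53, 0.52 and 0.55, with their calls kept. In the losartan and interaction comparisons 0 of 802 member values passed under any alternative (lowest limma adjusted p 0.271), and 46 turned sign. Signals near background limit Ms4a1, Cr2 and Blk, and 3 arrays a group limit the losartan comparisons.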
